A study of Mus musculus with 36 samples.

Results

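The respiratory chain genes described here are the nuclear genes whose symbols begin with Nduf, Uqcr or Atp5, the SDH subunit genes Sdha to Sdhd, and the cytochrome c oxidase genes named Cox4 to Cox8. Pseudogene names ending in -ps were left out, and a mean of at least 10 normalized counts over the 8 libraries of a table was required. The rule gave 88 genes of the 46078 listed for sorted B cell progenitors, 88 of 35896 for Pax5-/- cells and 90 of 18721 for cultured cells. In all, 94 genes were members in at least 1 table and 83 in all 3. The rule used names and abundance and no comparison between groups.

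The study asked how the nuclear deacetylase SIRT7 and the transcription factor Pax5 shape early B cell development in mice. Pro-B (B220+IgM-CD43+) and pre-B (B220+IgM-CD43-) cells, gated on further surface markers, came by sorting from bone marrow, taken from wild-type and germline Sirt7-/- 129Sv mice aged 8 to 16 weeks, with 2 libraries for each stage and genotype. By the sample descriptions the pro-B and pre-B library with the same replicate number came from the same mouse, so that each genotype was 2 mice. Pax5-/- B cell progenitors, made from fetal liver of C57BL/6 background but labelled in the repository as bone marrow pro-B cells, carried a retroviral empty vector (EV), Pax5WT, Pax5K198Q, in which glutamine stands for an acetylated lysine, or Pax5K198R, which cannot be acetylated at that position. In the third table, wild-type pro-B cells carried EV, and Sirt7-/- pro-B cells carried EV, Pax5WT or Pax5K198R. By the study these cells came from bone marrow of mice aged 8 to 16 weeks. It names 129Sv as the strain of its wild-type and Sirt7-/- mice unless stated otherwise. All transduced cells were grown on OP9 stromal feeder cells with IL-7, SCF and FLT3L, so that both EV groups also carried the vector and the culture, and the added Pax5 was driven by the vector and not by its own promoter. Each of these groups had 2 replicates. The methods describe replicates of sequencing as made on different days, and replicates as individual mice where mice were used. Whether the latter holds for the transduced cultures is not spelled out, so that p-values there measure the spread between days and samples, which may be technical. Pax5 was also mapped by ChIP-seq in Pax5-/- cells carrying each of the 3 Pax5 forms, in 2 replicates.

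The sorted libraries held 50004827 to 55536608 reads, as recovered from the normalized counts. The Pax5-/- libraries summed to 28865461 to 30520853 normalized counts, and the cultured libraries to 27814214 to 30160880. For 4 of the 8 sorted libraries the source name gave the other stage than the title, and the stage of the title was used. The markers went with the titles. Dntt, the terminal transferase of pro-B cells, had 19432 and 26828 normalized counts in the wild-type pro-B libraries and 131 and 157 in the wild-type pre-B libraries. Sirt7-/- pre-B replicate 2 stood apart, with 3838 counts of Dntt against 423 in replicate 1 and 291 against 20.3 of Kit. Sirt7 itself, the check of the genotype, fell from 2692 and 2533 counts in wild-type to 363 and 366 in Sirt7-/- pro-B cells, and from 5613 and 5219 to 1066 and 821 in pre-B cells. Pax5 in the Pax5-/- table rose from 2201 and 2103 with EV to 6458 and 6152 with Pax5WT, 8918 and 8963 with Pax5K198Q and 21162 and 16609 with Pax5K198R, so that the forms were not matched in RNA level.

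The respiratory chain moves electrons from NADH, taken up by complex I, and from succinate, oxidized by complex II, through ubiquinone to complex III, and through cytochrome c to complex IV, which reduces oxygen to water. Complexes I, III and IV pump protons out of the mitochondrial matrix, and complex V, the ATP synthase, lets them back in to make ATP. Most subunits are encoded in the nucleus and imported, while a small core is encoded by mitochondrial DNA. Pro-B cells divide in response to IL-7, and the pre-B compartment holds both dividing large cells and resting small cells.

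In the sorted cells the 88 members were 36 complex I subunits, 7 complex I assembly factors of the Ndufaf series, 4 subunits of complex II, 8 of complex III, 16 of complex IV and 15 of complex V, and the remaining 2, Atp5s and Atp5sl, share the prefix without being subunits of the enzyme. Per kilobase of exon the most abundant in sorted cells were Cox8a with 16430 normalized counts per kb, Cox6a1 with 15877 and Cox6b1 with 8674, all of complex IV. The least abundant per kb were the tissue isoforms Cox7a1 with 69.1 and Cox4i2 with 76.8, and the assembly factor Ndufaf2 with 106. In Pax5-/- cells the highest per kb were the catalytic ATP synthase subunits Atp5b with 8234 and Atp5a1 with 7331, then Cox8a with 6260, and the lowest were the assembly factors Ndufaf2 with 103, Ndufaf5 with 121 and Ndufaf3 with 124. In the third table, which uses the current name of Atp5a1, Atp5f1a led with 8622 per kb, followed by Cox6b1 with 8066 and Atp5f1b, the current name of Atp5b, with 7769, and the lowest were Cox6a2 with 74.1, Cox7a1 with 80.7 and Ndufaf2 with 93.6. The member nearest to the minimum was Cox7a1, with a mean of 36.96 normalized counts in sorted cells and 43.2 in the third table. In Pax5-/- cells it was Ndufaf6 with 201. Nearest below it were Ndufa4l2 with 0.626 in sorted cells and 1.01 in Pax5-/- cells, and Cox6b2 with 7.82 in the third table. Cox8b, Cox8c and Cox7b2 were listed at 0 in both the sorted and the Pax5-/- tables.

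Promoters of 78 of the 94 genes were matched by name in RefSeq on GRCm38.p6, from 250 bases before to 50 after the start. Short motifs of factors known for mitochondrial genes were searched on both strands. CCGGAAG, the core bound by the ETS factor GABPA, stood in 19 of the 78 promoters (24.4%) and in 9.93% of the 27025 genes with a promoter. The palindrome CGCATGCG, bound by NRF1, stood in 11 (14.1% against 2.07%), AAGATGGCG, bound by YY1, in 9 (11.5% against 1.64%) and TCAAGGTCA, bound by ERRalpha, in 2 (2.56% against 0.466%). CACGTG, the E-box read by Myc and Max, stood in 8 (10.3% against 8.09%) and TGACGTCA, the CRE, in 4 (5.13% against 2.03%). GCGTGAC, a core of the Pax5 site, stood in 1 member, Cox7a1 (1.28% against 2.43%). The member promoters held a median of 58.5% G and C and all promoters 52.7%, and the part of base composition in these shares was not tested. The 27025 genes, unlike the members, did not have to reach a minimum count. Motif shares among genes that met it are not given here, so that these shares do not set the members apart from other expressed genes. The following promoters are shown for genes whose expression is described further on. They span 170 bases before to 30 after the start, were chosen after the values were seen, and have the matches in capitals. Uqcr11 (chr10:80406792-80406991, minus strand) and Cox6a1 (chr5:115348929-115349128, minus strand) hold an NRF1 and an ETS match each, and Atp5g3 (chr2:73911297-73911496, minus strand) holds an ERRalpha match on the reverse strand. Ndufs3 (chr2:90904692-90904891, minus strand), which did not differ between stages, holds 2 ETS matches, and Atp5sl (chr7:25619244-25619443, plus strand), which rose, holds an E-box.
Uqcr11: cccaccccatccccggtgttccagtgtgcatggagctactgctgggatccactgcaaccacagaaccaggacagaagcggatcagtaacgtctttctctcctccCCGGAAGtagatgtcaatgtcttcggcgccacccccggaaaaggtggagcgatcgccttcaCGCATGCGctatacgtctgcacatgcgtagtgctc
Cox6a1: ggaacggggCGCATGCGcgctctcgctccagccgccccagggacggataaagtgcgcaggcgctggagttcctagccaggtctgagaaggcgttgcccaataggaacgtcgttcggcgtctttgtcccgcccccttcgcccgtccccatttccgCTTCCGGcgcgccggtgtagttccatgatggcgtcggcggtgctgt
Atp5g3: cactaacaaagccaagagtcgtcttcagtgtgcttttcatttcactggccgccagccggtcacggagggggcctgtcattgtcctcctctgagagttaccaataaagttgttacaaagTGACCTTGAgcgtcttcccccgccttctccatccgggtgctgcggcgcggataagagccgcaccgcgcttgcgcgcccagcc
Ndufs3: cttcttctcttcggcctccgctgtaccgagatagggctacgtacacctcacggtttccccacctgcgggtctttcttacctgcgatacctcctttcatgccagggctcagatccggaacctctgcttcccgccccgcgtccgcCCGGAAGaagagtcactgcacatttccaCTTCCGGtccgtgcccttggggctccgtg
Atp5sl: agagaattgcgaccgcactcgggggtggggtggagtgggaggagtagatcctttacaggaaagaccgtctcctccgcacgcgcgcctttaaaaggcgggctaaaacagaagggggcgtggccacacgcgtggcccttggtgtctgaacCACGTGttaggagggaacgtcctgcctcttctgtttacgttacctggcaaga

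Calls were found between the stages. In wild-type mice 45 of the 88 genes (51.1%) fell from the pro-B to the pre-B stage and 3 rose, by limma on log2(normalized count + 1) at an adjusted p under 0.05 with no threshold on the fold change. Of all 17649 genes tested, 22.0% were lower and 18.1% higher. In Sirt7-/- mice 49 were lower and 3 higher, where 19.2% of all genes were lower and 16.5% higher. The median log2 fold change of the members was -0.42 in wild-type and -0.39 in Sirt7-/- mice, and that of all genes was -0.04 in both. Of the members 76 (86.4%) had a value below 0 in wild-type, as had 51.7% of all genes. In bulk libraries fewer cells of a type and less RNA per cell cannot be told apart.

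Of the 53 members called lower in either genotype, 41 were called in both, 4 in wild-type only and 8 in Sirt7-/- only. The same overlap over all genes is not given here, so that these counts do not set the members apart. In 62 of the 88 genes (70.5%) each of the 4 pre-B libraries was below each of the 4 pro-B libraries, and this held for 26.6% of all genes. In 4 members each pre-B library was above each pro-B library, against 22.4% of all genes. As a share of the library the members took 0.675% and 0.663% of normalized counts in wild-type pro-B and 0.696% and 0.716% in Sirt7-/- pro-B cells. In pre-B cells the shares were 0.495% and 0.478% in wild-type and 0.516% and 0.508% in Sirt7-/- mice, so that the stages did not overlap. The number of calls depended on single libraries, for the members and for all genes. In wild-type mice it fell from 48 to 31 members (35.2%) without pro-B replicate 1, where 27.4% of all genes were called. In Sirt7-/- mice it fell from 52 to 29 members (33.0%) without pre-B replicate 1 and to 33 (37.5%) without pro-B replicate 1, where 22.5% and 21.9% of all genes were called. Without Sirt7-/- pro-B replicate 2 it fell to 20 members (22.7%), near the 21.0% of all genes. With the mouse as a block, which pairs the stages, 46 members were lower and 3 higher in wild-type mice, where 23.4% of all genes were lower and 19.7% higher, and 46 were lower and 4 higher in Sirt7-/- mice (20.3% and 18.2%). This fit lost the calls of Cox7a1 in wild-type and of Ndufb6, Atp5c1, Atp5l and Cox5b in Sirt7-/- mice, and added Ndufb3 in both genotypes, Ndufa1 in wild-type and Cox4i2 in Sirt7-/- mice.

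**Figure D1:**
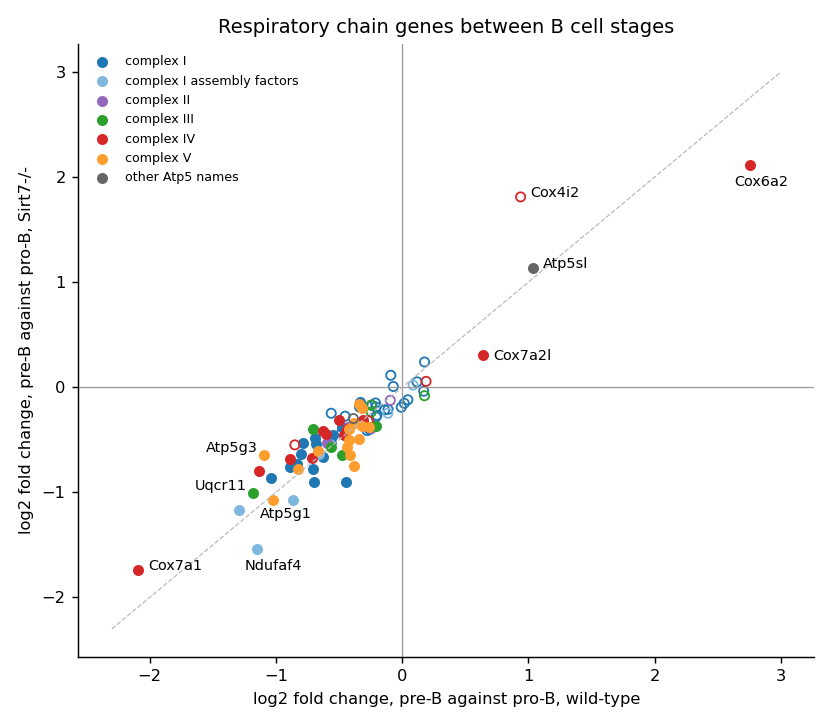
Each circle is 1 of the 88 respiratory chain genes, with its log2 fold change between pre-B and pro-B cells in wild-type (horizontal axis) and in Sirt7-/- mice (vertical axis), coloured by complex; filled circles passed the test in at least 1 genotype and the dashed line marks equal values. Most genes lie below 0 on both axes. Among the genes above 0 on both, Cox6a2, Atp5sl and Cox7a2l passed the test in both genotypes and Cox4i2 in neither.

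Of all genes 22.0% were lower in wild-type and 19.2% in Sirt7-/- mice, beside the counts below for each complex and the assembly factors. Complex I, the NADH dehydrogenase, had 14 of 36 subunits lower in wild-type and 15 in Sirt7-/- mice, and none higher. The medians over its subunits were -0.34 and -0.28 on the log2 scale. The accessory subunit Ndufv3 had 2277 and 2478 normalized counts in wild-type pro-B and 1240 and 1075 in wild-type pre-B cells. In Sirt7-/- cells it had 2526 and 2454 in pro-B and 1442 and 1293 in pre-B libraries. All 4 pre-B libraries were below all 4 pro-B libraries, a 2.06-fold lower level in wild-type (log2 fold change -1.04, SE 0.12, limma adjusted p 0.000832). Ndufab1, the mitochondrial acyl carrier protein, was 1.78-fold lower (-0.84, SE 0.092, limma adjusted p 0.000734).

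Of the 7 catalytic core subunits of complex I encoded in the nucleus, 2 passed the test. This count does not stand apart from the 22.0% of all genes lower in wild-type and 19.2% in Sirt7-/- mice. Ndufv1 and Ndufv2, which bind the flavin and an iron-sulfur cluster where NADH is oxidized, were lower in both genotypes, by 0.55 and 0.89 on the log2 scale in wild-type. The other 5 did not pass the test in either genotype. Ndufs1, the largest core subunit, had 3138 and 3229 normalized counts in wild-type pro-B and 3076 and 3261 in wild-type pre-B cells. In Sirt7-/- cells it had 3042 and 2958 in pro-B and 2561 and 2697 in pre-B cells. The wild-type stages therefore overlapped, whereas the Sirt7-/- pre-B libraries were the lowest of the 8, and neither comparison passed (log2 fold change -0.01 and -0.19, limma adjusted p 0.955 and 0.135). Ndufs3 had a log2 fold change of 0.02 in wild-type and -0.15 in Sirt7-/- mice. Ndufs7, with the last iron-sulfur cluster of the chain to ubiquinone, had -0.34 and -0.19, and Ndufs8 -0.07 and 0.01.

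Of the complex I assembly factors, 4 of 7 were lower in both genotypes. Ndufaf4 had 993 and 1239 normalized counts in wild-type pro-B and 486 and 514 in pre-B cells, and in Sirt7-/- cells 1074 and 1189 in pro-B and 488 and 308 in pre-B cells. The stages did not overlap, and the level was 2.22-fold lower in wild-type (-1.15, SE 0.23, limma adjusted p 0.00817) and 2.91-fold lower in Sirt7-/- mice (-1.54, adjusted p 0.00334). Ndufaf6 fell by 1.30 and 1.17, Ndufaf2 by 0.86 and 1.08 and Ndufaf7 by 0.66 and 0.64 on the log2 scale. Ndufaf1 (-0.11), Ndufaf3 (0.09) and Ndufaf5 (-0.57) did not pass in wild-type mice.

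In complex II, succinate dehydrogenase, Sdha and Sdhc passed in both genotypes. Sdha, the flavoprotein that oxidizes succinate, had 8416 and 9210 normalized counts in wild-type pro-B and 6455 and 6587 in wild-type pre-B cells, and 8737 and 9176 in pro-B and 6693 and 7123 in pre-B cells of Sirt7-/- mice. Its stages did not overlap (1.35-fold lower in wild-type, limma adjusted p 0.00675). Sdhc, a membrane anchor, was 1.51-fold lower. Sdhb, the iron-sulfur subunit, did not pass in either genotype (-0.09 and -0.12), and Sdhd, the other anchor, passed in Sirt7-/- mice (-0.38, limma adjusted p 0.0269) and not in wild-type (-0.25, adjusted p 0.0965). The interaction test described further on did not call the difference between these values.

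Complex III had 4 of the 8 subunits covered by the naming rule lower in wild-type and 5 in Sirt7-/- mice. The small subunit Uqcr11 had the largest fall, from 2730 and 2555 normalized counts in wild-type pro-B to 1249 and 1086 in pre-B cells, and from 2886 and 2744 to 1275 and 1542 in Sirt7-/- mice. The stages did not overlap (2.27-fold lower in wild-type, log2 fold change -1.18, SE 0.13, limma adjusted p 0.000764). Uqcr10, Uqcrq and Uqcrb were also lower in both genotypes. The other 4 were not called in wild-type mice, with values of -0.25 for Uqcrfs1, the Rieske iron-sulfur protein, -0.25 and -0.20 for the core proteins Uqcrc1 and Uqcrc2, and 0.18 for Uqcrh. Of these, Uqcrc2 passed in Sirt7-/- mice (-0.37).

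Complex IV, cytochrome c oxidase, was the only complex with calls in both directions. It had 10 of 16 members lower and 2 higher in wild-type mice and 9 lower and 2 higher in Sirt7-/- mice. The 2 higher do not stand apart from the 18.1% of all genes higher in wild-type and 16.5% in Sirt7-/- mice. Cox5a had 6274 and 6386 normalized counts in wild-type pro-B and 3037 and 2748 in wild-type pre-B cells, and 6882 and 6897 against 3597 and 4341 in Sirt7-/- mice. The stages did not overlap (2.19-fold lower in wild-type, log2 fold change -1.13, SE 0.11, limma adjusted p 0.000497). Cox4i1, Cox5b, Cox6a1, Cox6b1, Cox7b, Cox7c, Cox8a and Ndufa4 were lower in both genotypes, by 0.31 to 0.89 on the log2 scale in wild-type, and of these Cox5b lost its call in Sirt7-/- mice with the mouse as a block (limma adjusted p 0.0573). Cox7a2 (-0.27) and Cox6c (0.19) did not pass.

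The paralogs of the Cox6a subunit moved in opposite directions. Cox6a1, the widely expressed form, had 12666 and 12391 normalized counts in wild-type pro-B and 8500 and 7699 in pre-B cells, and 13786 and 13582 against 9823 and 10719 in Sirt7-/- mice. It was 1.55-fold lower in wild-type pre-B cells (limma adjusted p 0.00149). Cox6a2, known as the form of heart and skeletal muscle, had 328 and 305 counts in wild-type pro-B and 2669 and 1711 in wild-type pre-B cells. In Sirt7-/- mice it had 280 and 410 in pro-B and 1766 and 1229 in pre-B cells. All 4 pre-B libraries were above all 4 pro-B libraries, 6.74-fold higher in wild-type (log2 fold change 2.75, SE 0.29, limma adjusted p 0.000646) and 4.34-fold higher in Sirt7-/- mice (2.12, adjusted p 0.00235). Among the other tissue isoforms, Cox7a1, also known from muscle, was low throughout, with 46.7 and 55.0 counts in wild-type pro-B and 9.41 and 13.1 in pre-B cells. It passed in wild-type (-2.09, SE 0.66, limma adjusted p 0.0423) and not in Sirt7-/- mice (-1.74, adjusted p 0.0822), and lost its call in wild-type with the mouse as a block (adjusted p 0.0577) and when any 1 of the 4 wild-type libraries was left out. Cox6b2, known from testis (-0.85 in wild-type), and Cox4i2, known from lung (0.94), did not pass in wild-type. Cox4i2 in Sirt7-/- mice (1.81) had a limma adjusted p of 0.0683, and of 0.0499 with the mouse as a block.

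Cox7a2l, which links complexes III and IV in supercomplexes, was the other member of this family to rise. It had 6817 and 7398 normalized counts in wild-type pro-B and 11248 and 10939 in pre-B cells, and 8408 and 8178 against 10734 and 9794 in Sirt7-/- mice. The stages did not overlap, with a 1.56-fold higher level in wild-type (0.64, SE 0.085, limma adjusted p 0.00138) and a 1.24-fold higher one in Sirt7-/- mice (0.31, adjusted p 0.0299). The call in Sirt7-/- mice was lost under quantile normalization (0.19), when scaled to equal totals (0.21), and when pre-B replicate 1 or either pro-B library was left out.

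All 15 subunits of complex V, the ATP synthase, had values below 0 in both genotypes, and 11 passed in wild-type and 13 in Sirt7-/- mice. The 3 genes for subunit c, which form the proton-carrying ring, all fell. Atp5g1 had 3731 and 3645 normalized counts in wild-type pro-B and 1796 and 1823 in pre-B cells, and 4493 and 4202 against 2110 and 2021 in Sirt7-/- mice. Its stages did not overlap, and it was 2.04-fold lower in wild-type (-1.03, SE 0.088, limma adjusted p 0.000331). Atp5g3 had 10874 and 10880 against 5098 and 5086 counts in wild-type and 10284 and 10590 against 6332 and 7029 in Sirt7-/- mice. It was 2.14-fold lower in wild-type (limma adjusted p 0.000227) and 1.56-fold lower in Sirt7-/- mice (adjusted p 0.00174), and Atp5g2 fell by 0.83 and 0.78 on the log2 scale.

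The catalytic head of complex V was lower as well. Atp5b, the beta subunit that makes ATP, had 30784 and 32933 normalized counts in wild-type pro-B and 19772 and 20276 in pre-B cells, and 33531 and 35585 against 22449 and 22841 in Sirt7-/- mice. The stages did not overlap (1.59-fold lower in wild-type, -0.67, SE 0.073, limma adjusted p 0.000689). Atp5a1, the alpha subunit, was 1.34-fold lower (adjusted p 0.00492). Atp5c1, the central stalk, did not pass in wild-type (-0.26, limma adjusted p 0.121) and passed in Sirt7-/- mice (-0.37, adjusted p 0.0454), where the call was lost with the mouse as a block (adjusted p 0.0697). Atpif1, the inhibitor of ATP hydrolysis by complex V, which carries another prefix in this table and was not a member, was also lower (-0.50 and -0.39, limma adjusted p 0.00403 and 0.0133). Atp5sl, which shares the prefix only and is now called Dmac2, rose from 4152 and 3898 counts in wild-type pro-B to 9111 and 7477 in pre-B cells, and from 3534 and 3468 to 8774 and 6766 in Sirt7-/- mice, 2.05-fold in wild-type (limma adjusted p 0.00191). Its 4 pre-B libraries were all above its 4 pro-B libraries.

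**Figure D2:**
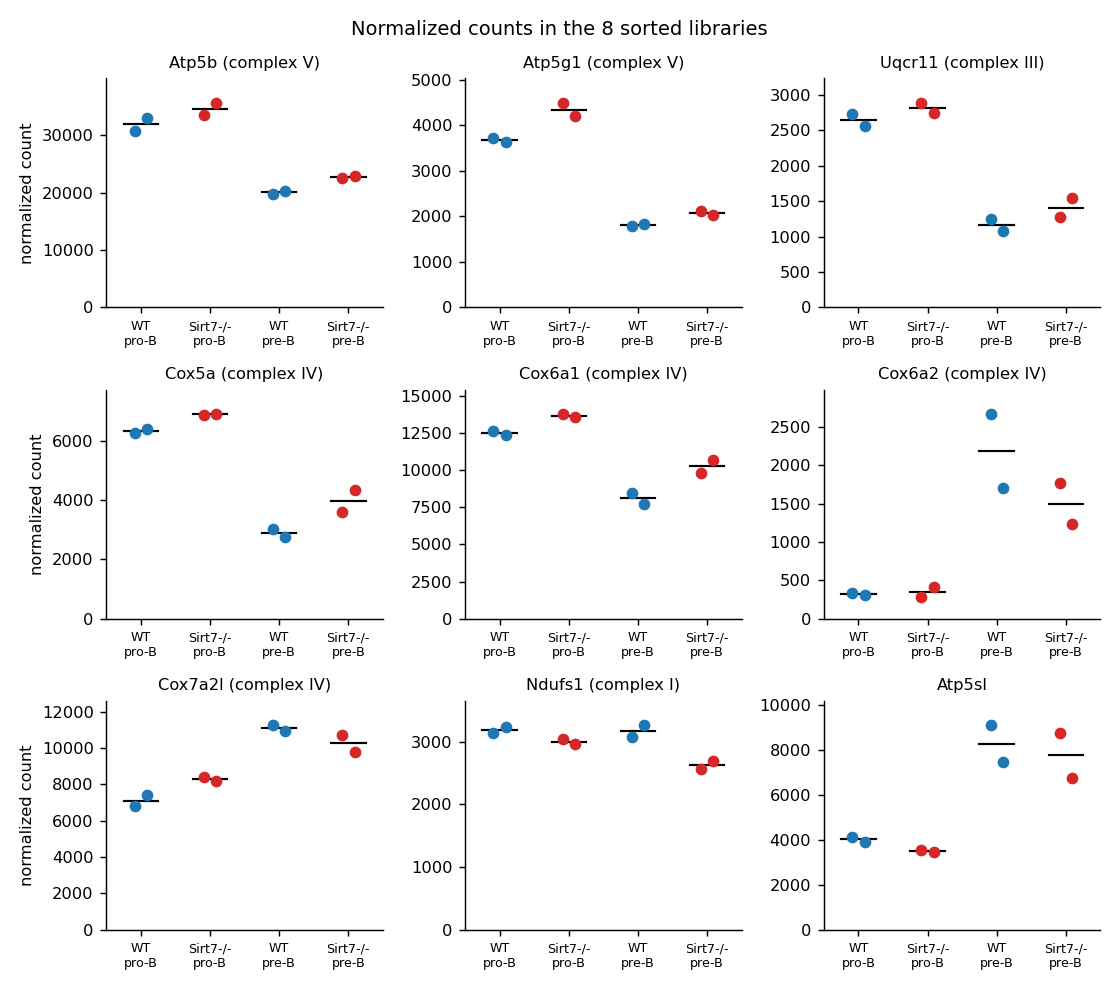
Normalized counts (vertical axes, starting at 0) of 9 genes in the 8 sorted libraries, by genotype and stage; each point is a library, blue for wild-type and red for Sirt7-/-, and each bar is the mean of 2. Atp5b, Atp5g1, Uqcr11, Cox5a and Cox6a1 are lower and Cox6a2, Cox7a2l and Atp5sl higher in every pre-B library, while Ndufs1 overlaps between the wild-type stages.

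The 13 subunits encoded by mitochondrial DNA had values nearer to 0. None passed in wild-type mice by limma, where 2 had an unadjusted p under 0.05, and their median log2 fold change was 0.05. In Sirt7-/- mice mt-Nd4, mt-Nd4l, mt-Nd5 and mt-Nd6, all of complex I, were higher in pre-B cells (0.28 to 0.46), where 16.5% of all genes were, and the median was 0.18. The difference from the nuclear subunits was not tested. Their summed level was 3646622 and 3319572 normalized counts in wild-type pro-B and 3430779 and 3831087 in their pre-B counterparts, and these stages overlapped. In Sirt7-/- mice it was 3428333 and 3261026 in pro-B and 3736047 and 3909558 in pre-B cells.

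Beside the lists that follow, 22.0% of all genes were lower and 18.1% higher in wild-type, and 19.2% and 16.5% in Sirt7-/- mice. Of 12 carriers and electron transfer proteins in or around the chain that the naming rule leaves out, 6 were lower in each genotype and none was higher. They included Vdac1, the channel of the outer membrane (-1.16 in wild-type), Slc25a5, an exchanger of ADP and ATP (-0.96), and Cycs, cytochrome c (-0.78). Of 18 genes of the citric acid cycle and its entry, 8 were lower in wild-type and 6 in Sirt7-/- mice, among them Idh3a, isocitrate dehydrogenase (-0.98), Mdh2, malate dehydrogenase (-0.61), and Pcx, pyruvate carboxylase (-1.90). Of 37 assembly factors other than the Ndufaf series, 5 were higher and 5 lower in wild-type mice, shares below the 18.1% and 22.0% of all genes. Surf1 (0.62), of complex IV, was among the higher and Cox10 (-0.57), which makes its heme, among the lower.

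Of 15 regulators of mitochondrial genes tested, 2 were higher and 4 lower in wild-type mice, counts that do not stand apart from the 18.1% and 22.0% of all genes. Esrra, which encodes ERRalpha, rose (1.33 in wild-type, limma adjusted p 0.00125) in both genotypes, from 858 and 754 normalized counts to 1896 and 2161 in wild-type mice. Tfb2m (0.43) passed in wild-type. Myc (-3.65), Ppargc1b, the coactivator PGC-1beta (-2.34), and Tfb1m (-1.24) fell in both genotypes, and Mycn (-1.51) in wild-type. Nrf1 (-0.13), Gabpa (-0.12), Tfam (0.16) and Ppargc1a (-0.50) did not pass in wild-type. Of the 78 members with a promoter, 34 were lower in both genotypes and 29 in neither, and the NRF1 match stood in 7 and 3 of them, the ETS match in 7 and 5 and the YY1 match in 3 and 4.

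Other gene lists were counted between stages in the same way, beside the 18.1% of all genes higher and 22.0% lower in wild-type mice. All 24 cell cycle genes were lower in pre-B cells in both genotypes, with medians of -1.71 and -1.16, and their summed level was 520204 and 544935 normalized counts in wild-type pro-B against 143151 and 191370 in pre-B cells. The Sirt7-/- libraries had 491356 and 525857 against 193735 and 283291, Mki67 being the most abundant in each library. Of 77 mitochondrial ribosomal protein genes 29 were lower and 3 higher in wild-type, and of 100 cytosolic ones 61 were lower and 2 higher. T cell markers were lower in pre-B cells, 8 of 10 in wild-type, their sum running from 5641 to 6143 normalized counts in pro-B and 3025 to 3642 in pre-B libraries, most of it Lck, which B cell progenitors also express. Erythroid markers, led by Hba-a1, summed to 48399 and 72991 in the pro-B and pre-B replicate 2 libraries of Sirt7-/- mice and to 5889 to 16539 in the other libraries. Markers of mature B cells, led by Ighd, rose from 15634 to 19514 in pro-B to 92144 to 195425 in pre-B libraries, and stromal markers summed to at most 545, with Lum listed at 0. Of the 8 myeloid markers 1 was higher and 2 were lower in wild-type pre-B cells, of the 6 NK cell markers 1 was lower, and of the 5 plasma cell markers, led by Jchain, 1 was higher and 2 were lower. The part of these programs and cells in the stage difference was not tested. Without Sirt7-/- pre-B replicate 2, the library with more pro-B markers, 40 members (45.5%) and 33.1% of all genes were called in Sirt7-/- mice.

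No member was called between Sirt7-/- and wild-type cells at either stage by limma. In pro-B cells 0.0623% of all genes were called. An unadjusted p under 0.05 was found for 3 members (3.41%) and for 5.94% of all genes, and the median log2 fold change of the members was 0.07, with 26.1% of them below 0 against 49.9% of all genes. The smallest adjusted p was that of Atp5j, a stalk subunit of complex V, with 3260 and 3183 counts against 2372 and 2421 in wild-type (0.43, SE 0.12, limma adjusted p 0.677). At the pre-B stage 0.085% of all genes were called. An unadjusted p under 0.05 was found for 9 members (10.2%) and for 13.6% of all genes, and the median of the members was 0.08, with 28.4% of them below 0 against 47.4% of all genes. The smallest adjusted p was that of Atp5g3, at 6332 and 7029 counts against 5098 and 5086 in wild-type (0.39, SE 0.081, limma adjusted p 0.153). DESeq2 on the recovered reads called Atp5g3 (adjusted p 0.00543), Cox5a (0.45, adjusted p 0.0242) and Cox6a1 (0.34, adjusted p 0.0325) higher in Sirt7-/- pre-B cells, which is 3.41% of the members, where DESeq2 called 4.62% of the 15596 genes it gave an adjusted p. edgeR called no member. In the same comparison all 24 cell cycle genes had values above 0 (median 0.53, none called by limma), and the part of this in those 3 genes was not tested. Each of these 3 genes had more counts in Sirt7-/- pre-B replicate 2, the library with more pro-B and erythroid markers, than in Sirt7-/- pre-B replicate 1. Without it their limma log2 fold changes were 0.31 for Atp5g3, 0.32 for Cox5a and 0.28 for Cox6a1.

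The stage difference did not differ between genotypes for any member by the interaction test of limma, edgeR or DESeq2, with 0.00567% of all genes called by limma. By limma 2 members (2.27%) had an unadjusted p under 0.05, as had 5.43% of all genes. They were Atp5g3 (difference of log2 fold changes 0.45, SE 0.115, adjusted p 0.719) and Cox7a2l (-0.34, SE 0.12, adjusted p 0.875). The median SE of the members was 0.16 on the log2 scale.

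In Pax5-/- cells none of the 5 comparisons of Pax5 forms called a member by limma. The share of all genes called was 3.25% for Pax5WT against EV, 0.922% for Pax5K198Q against EV, 9.92% for Pax5K198R against EV, 0.0225% for Pax5K198Q against Pax5WT and 2.87% for Pax5K198R against Pax5WT. Unadjusted p values under 0.05 were found for 1, 0, 3, 0 and 1 members, and for 14.4%, 7.86%, 22.9%, 3.46% and 12.7% of all genes in the same order. The median log2 fold changes of the members were -0.004, -0.011, 0.006, -0.014 and -0.0002 in the same order. The comparisons with EV share the EV libraries and those with Pax5WT the Pax5WT libraries.

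The members differed between replicates. In replicate 2 the members were higher than in replicate 1 for 83 of 88 genes with EV, 78 with Pax5WT, 81 with Pax5K198Q and 77 with Pax5K198R, while 47.3% to 49.5% of all genes were. The members took 0.813% of the EV library in replicate 1 and 0.949% in replicate 2. The shares were 0.828% and 0.918% with Pax5WT, 0.827% and 0.913% with Pax5K198Q, and 0.798% and 0.910% with Pax5K198R, so that every replicate 2 library was above every replicate 1 library. Atp5b had 33206 and 39501 normalized counts with EV and 31614 and 37303 with Pax5WT. Replicates were made on different days by the methods, and whether libraries of different groups with the same number share a day is not stated. The part of the day in these values was not tested.

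**Figure D3:**
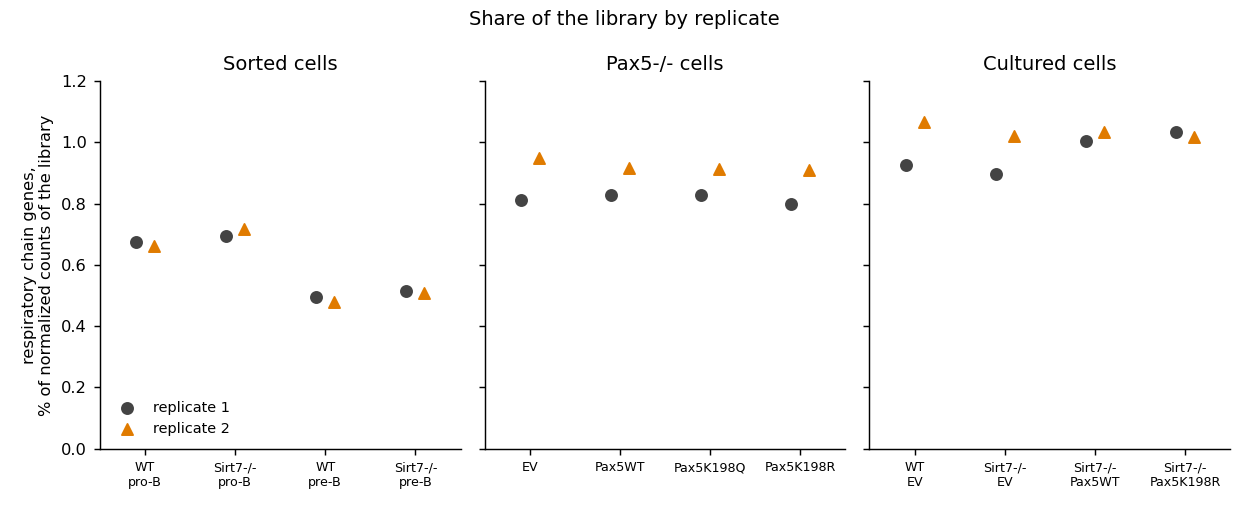
Share of normalized counts of each library taken by the respiratory chain genes (vertical axes, %, starting at 0) in the sorted, Pax5-/- and cultured tables; grey circles are replicate 1 and orange triangles replicate 2. Pre-B libraries lie between 0.478% and 0.516% and pro-B libraries between 0.663% and 0.716%, and replicate 2 lies above replicate 1 in all 4 Pax5-/- groups. The tables were normalized separately.

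With the replicate number as a block, the median SE of the members fell from 0.15 to 0.082, and a few members were called. Pax5WT against EV then had 1 member lower and none higher, where 10.1% of all genes were called and 5.04% were lower, and Pax5K198R against EV had 3 lower and 1 higher, where 21.2% of all genes were called, 11.8% lower and 9.42% higher. Cox6a2 led both. It had 3513 and 3312 normalized counts with EV, 1588 and 915 with Pax5WT, 2150 and 1535 with Pax5K198Q, and 2168 and 716 with Pax5K198R. Both EV libraries were above all others. The level was 2.83-fold lower with Pax5WT (log2 fold change -1.50, SE 0.48, limma adjusted p 0.173, and 0.0159 with the block) and 2.74-fold lower with Pax5K198R (-1.45, SE 0.48, limma adjusted p 0.111, and 0.00985 with the block). With Pax5K198Q it was 1.88-fold lower (-0.91, limma adjusted p 0.806, and 0.179 with the block). Pax5K198Q was above Pax5WT in both replicates, but the test did not distinguish them, with a difference of 0.59 (SE 0.48, limma adjusted p 1, and 0.687 with the block). Pax5K198R was not compared with Pax5K198Q. The 3 other calls with the block were Ndufs4, an accessory subunit of complex I (0.33, limma adjusted p 0.0392), Atp5g1 (-0.30, 0.0451) and Ndufv3 (-0.42, 0.0139), all for Pax5K198R against EV. With the block no member was called for Pax5K198Q against EV, for Pax5K198Q against Pax5WT or for Pax5K198R against Pax5WT, where 2.72%, 0.217% and 7.52% of all genes were.

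In the third table no member was called by limma, with or without the replicate block. Without the block 0.557% of all genes were called for Sirt7-/- EV against wild-type EV, and 0.0366% for Pax5WT, 4.83% for Pax5K198R, each against EV in Sirt7-/- cells, and 0.425% for Pax5K198R against Pax5WT. With the block these shares were 2.11%, 1.96%, 11.6% and 2.3%. The median log2 fold changes of the 90 members were -0.07, 0.05, 0.07 and 0.006, with 3, 0, 0 and 0 members at an unadjusted p under 0.05, as were 9.68%, 9.91%, 18.4% and 8.78% of all genes. The smallest adjusted p for Sirt7-/- EV against wild-type EV was that of Ndufb2, an accessory subunit of complex I, with 1069 and 1160 normalized counts in Sirt7-/- and 1408 and 1551 in wild-type cells (-0.41, SE 0.13, limma adjusted p 0.290). The groups did not overlap, but this gene was picked for its small p-value. The share of all genes without overlap is not given here. Stromal markers of the OP9 kind, led by Cxcl12, summed to 3112 to 11180 normalized counts in these libraries and to 865 to 2364 in the Pax5-/- libraries, and the part of feeder cells in the values was not tested. Replicate 2 was higher than replicate 1 for 83 of 90 members in wild-type EV and 80 in Sirt7-/- EV cells, and for 58 and 34 in Sirt7-/- cells with Pax5WT and Pax5K198R. Of all genes 46.8%, 49.7%, 50.3% and 48.4% were higher in the same order.

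Cox6a2 was near the lower end here, with 57.8 and 51.8 normalized counts in wild-type EV, 46.2 and 72.6 in Sirt7-/- EV, 35.9 and 40.2 with Pax5WT and 48.5 and 50.3 with Pax5K198R. Both Pax5WT libraries were below all others, and the Sirt7-/- EV libraries overlapped with wild-type EV and with Pax5K198R. The Pax5-/- EV cells had 3513 and 3312 counts in their own table, which was normalized separately and comes from cells of another origin and strain, so that no test was made between them.

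**Figure D4:**
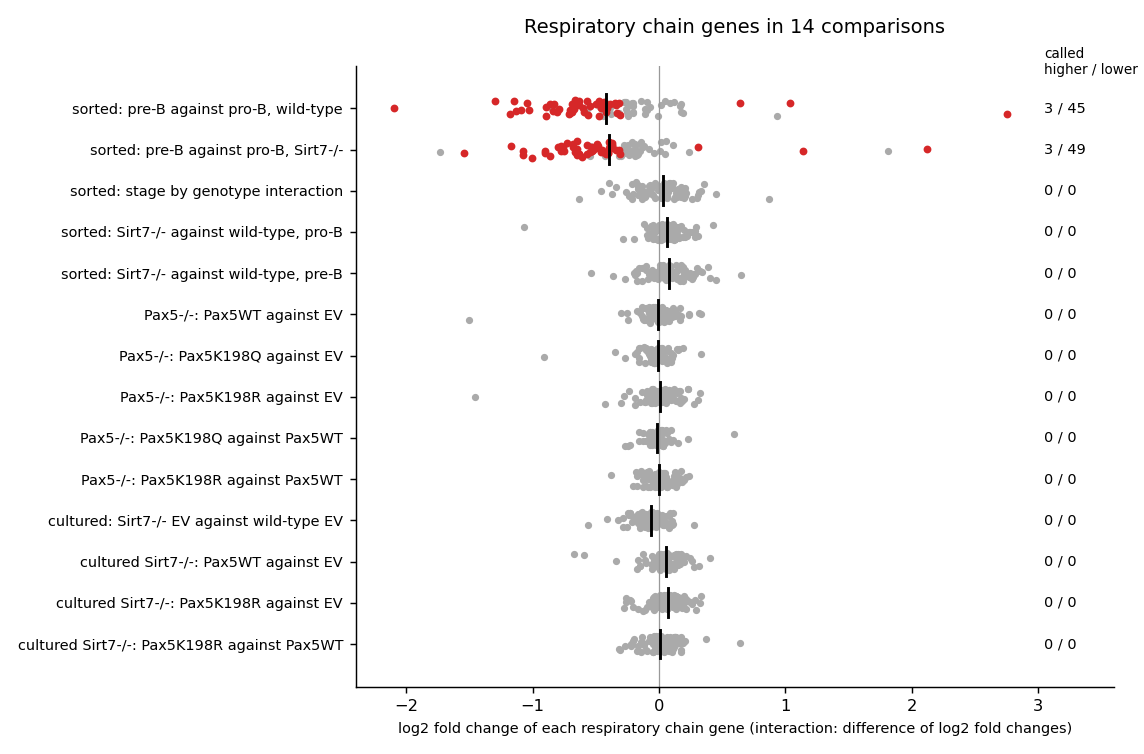
Log2 fold change of each respiratory chain gene (horizontal axis) in the 14 comparisons, with red points for calls at an adjusted p under 0.05 by limma, grey points for the rest and a black bar at the median; the numbers at the right are calls higher and lower. Calls are seen between stages only, and the grey point near -1.5 for Pax5WT and for Pax5K198R against EV is Cox6a2.

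Pax5 ChIP-seq peaks lay at the promoters of a part of the members. The peak lists held 10646 and 11830 peaks with Pax5WT, 3750 and 3957 with Pax5K198Q, and 12158 and 13997 with Pax5K198R. The peak names inside the longer Pax5K198R list carry a number that matches neither replicate of its label, and it was taken as the second replicate of that form. A peak of both replicates within 1000 bp of the annotated start was found for 27 of 88 members (30.7%) with Pax5WT, 9 (10.2%) with Pax5K198Q and 32 (36.4%) with Pax5K198R. Among 12786 genes that met the same minimum as the members, 28.0%, 9.46% and 34.2% had such a peak, so that the members were near the background. Of all 35507 genes placed on the annotation the shares were 10.8%, 3.6% and 13.0%. The number of members with a peak followed the length of the lists.

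The 9 members with a peak for all 3 forms were Ndufa12, Ndufa13, Ndufb5 and Ndufc2 of complex I, Sdhc of complex II, and Cox4i1, Cox5b, Cox7a2 and Ndufa4 of complex IV. Another 14 had one with Pax5WT and Pax5K198R, namely Ndufa6, Ndufa11, Ndufb1, Ndufb7, Ndufb8, Ndufs1 and Ndufv1 of complex I, Sdha and Sdhd of complex II, Uqcr10 and Uqcrfs1 of complex III, Cox5a of complex IV, and Atp5g3 and Atp5o of complex V. With Pax5WT alone it was found for 4 members, Ndufa10, the assembly factor Ndufaf1, Atp5a1 and Atp5md, and with Pax5K198R alone for 9, Ndufa8, Ndufb6, Ndufs7, Ndufv2, the assembly factor Ndufaf8, Uqcr11, Cox7c, Atp5mpl and Atp5pb. These classes need a peak in both replicates. With a peak in 1 replicate enough, Ndufa10, Atp5a1 and Atp5md also had one with Pax5K198R, and Ndufa10 and Ndufs7 with Pax5K198Q. Ndufa8, Ndufaf8, Uqcr11, Cox7c and Atp5pb then also had one with Pax5WT. Peaks for all 3 forms were found for 3.48% of all genes placed. Peaks for at least 1 form were found for 36 members and 14.5% of those genes. These shares are not given for genes that met the minimum. At Sdhc the peaks covered the start of the gene (chr1:171150245-171150747 in Pax5WT replicate 1, mm10), with a fold enrichment over input of 7.55 and 12.4 with Pax5WT, 7.76 and 4.81 with Pax5K198Q and 16.3 and 14.7 with Pax5K198R. At Ndufb5 the summits lay 388 to 452 bases before the start, with a fold enrichment of 10.9 and 14.2, then 7.08 and 12.9, then 13.1 and 16.1 in the same order. The values of the replicates with Pax5WT and Pax5K198Q overlapped at both genes. Sdhc had 2232 and 2373 normalized counts in EV cells and 2146 and 2452 with Pax5WT, and Ndufb5 was not called in any comparison of Pax5 forms, with or without the block. At Atp5g3 the Pax5WT replicate 1 peak (chr2:73911148-73911501) spans the promoter printed above, which holds no GCGTGAC, and at Uqcr11 both Pax5K198R lists have a peak and 1 of the Pax5WT lists has.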

How the data were processed

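RNA-seq of 24 libraries and Pax5 ChIP-seq peak lists of 6 were used, of 36 samples in the series; the ChIP input libraries were not used here. The deposited RNA values are a signal, normalized counts in 3 tables normalized separately. The authors describe Salmon quantification on mm10 with GC-bias correction, gene summation and the median-of-ratios scaling of DESeq2. Only the sorted values came out as whole reads, so that the same processing for all 3 tables is not certain. The authors called peaks per replicate with MACS2 over input after Bowtie2 alignment to mm10. Their deposited peak lists give a fold enrichment over input, which is a ratio, and a -log10 q. Versions of these tools are not given in the sources used here.

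Testing was limited to genes that reached 10 normalized counts in 2 or more of a table's 8 libraries. limma 3.58.1 (R 4.3.3) was run on log2(normalized count + 1), a scale that understates changes of low genes. The 4 groups of a table entered 1 fit with a trended prior, and p-values were adjusted by Benjamini-Hochberg over all genes tested (17649 sorted, 13345 Pax5-/-, 13651 cultured). Calls had an adjusted p under 0.05. For sorted cells 100% of the deposited values were whole reads after division by the value of 1 read (tolerance 0.001), and edgeR 4.0.16 and DESeq2 1.42.0 were run on these reads as alternatives. For the other tables the depth in reads is unknown. With 2 libraries against 2 an exact permutation test cannot go below 0.333. Deviations from group means of same-numbered libraries correlated at 0.264 to 0.383 in Pax5-/- cells and 0.156 to 0.428 in cultured cells, over every pair of groups, so the numbers were taken to pair these libraries and the fit with the replicate number as a block is given beside the results it changes. In sorted cells the correlations were 0.0101 to 0.156 over all pairs of groups. There the sample descriptions give the 2 stages of a replicate one animal number, the methods equate a replicate with a mouse, and the mouse was the block for comparisons of stages. The fits were tested on simulated data, but the outcome is not given here and no result above rests on it.

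The members, lists and tests were chosen with earlier results of these data known. Genes were named by rule: the catalytic subunits of complex I, complexes II, III and IV, the tissue isoforms, the head and inhibitor of complex V, up to 4 called members with the largest change in each direction per comparison or else the one with the smallest adjusted p, the 3 highest and lowest per kb, the members with a promoter peak, Sirt7 and Pax5. Other named genes were chosen after their values were seen. Gene positions and exon lengths were taken from GENCODE M21, and promoters from RefSeq on GRCm38.p6, the assembly of mm10. Paralogs such as the subunit c genes may share reads. Some genes are counted but not reported by name here.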

Additional observations from a re-analysis of the deposited data

Results flagged for a closer look

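Among the names left out as pseudogenes, Atp5l2-ps had a mean of 26.03 normalized counts over the sorted libraries and Ndufa12-ps had 189.4 over the cultured libraries. Both lie above the minimum of 10 that members had to reach. They were singled out because they hold signal outside the genes described.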

How the results depend on the processing

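No called member changed sign under any alternative run. The 48 stage calls in wild-type and 52 in Sirt7-/- mice were 54.5% and 59.1% of the members, where 40.2% and 35.7% of all genes were called. They became 48 and 48 with edgeR (all genes 38.5% and 33.8%) and 51 and 53 with DESeq2 (42.8% and 38.5%) on recovered reads. Scaling to equal totals gave 61 and 60 (40.2% and 36.5%), quantile normalization 51 and 52 (40.2% and 35.7%), the fit without the trended prior 39 and 36 (35.3% and 30.5%) and the replicate block 52 and 55 (44.3% and 39.7%). With the mouse as a block, which pairs the 2 stages of each animal, the calls were 49 and 50, of which 47 and 48 were among those without it. Scaling to equal totals moved the median of all genes to -0.12 and -0.14 and that of the members to -0.51 and -0.50. Leaving out 1 library gave 31 to 39 calls in wild-type and 20 to 40 in Sirt7-/- mice; the lone library left in a group is assumed to vary like the others. DESeq2 called 3 members in pre-B cells between genotypes, or 3.41% of them against 4.62% of all genes, where limma called none and 0.085% of all genes. In Pax5-/- cells the replicate block gave 1 call for Pax5WT and 4 for Pax5K198R, each against EV, and fitting only the groups compared gave 1 for Pax5WT. Leaving out 1 library gave 0 to 1 for Pax5K198R against EV, the 1 being without Pax5K198R replicate 1, and 0 in the remaining comparisons between genotypes or Pax5 forms. The replicate block changed no other count of called members by over 1.5 times. Counts over all genes moved by more. For Sirt7-/- against wild-type pre-B cells they went from 11 higher and 4 lower to 5 higher and 2 lower. Members with a Pax5K198Q promoter peak rose from 9 to 16 when a peak in at least 1 replicate was enough, and the share of all genes placed rose from 3.6% to 7.36%. With 2 libraries per group, small differences could not be resolved.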
